A study of Mus musculus with 6 samples.

Results

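The genes described here are 37 genes of glycolysis and of the hypoxia response. They act in glucose uptake, the glycolytic steps, lactate production and export, the control of pyruvate dehydrogenase and signaling by the hypoxia-inducible factors (HIF). They were chosen by name for these roles, with earlier results of these data known. Of the 37 genes, 35 had a probe set that the platform annotation ties to that gene alone, out of 19938 genes with such a probe set on the arrays. Gpi1 and Eno1 had none, so their expression was not analysed here, and they enter only the promoter search. RNA was profiled on 6 Affymetrix arrays. AGR cells (3 arrays) are a line expanded from 1 colony that grew in 3D culture in the presence of 1 µM AG1478, an inhibitor of the EGFR kinase, and such resistant lines were kept without drug once established. NME cells (3 arrays) are their parental line, NMuMG mammary gland cells of the mouse in which EGFR was overexpressed by stable viral transduction with puromycin selection, so that AGR cells derive from the same transduced cells. Both lines were cultured in serum-containing medium with insulin, and the labels name no culture under low oxygen. AGR cells come from a single colony, so a difference between the lines cannot be told apart from a difference between that colony and any other colony. The labels do not say whether each array had a culture of its own, and the p-values measure the spread between these arrays only.

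Glycolysis splits glucose into pyruvate, which is either reduced to lactate and exported or passed into mitochondria, where the pyruvate dehydrogenase complex feeds it into the citric acid cycle. Pyruvate dehydrogenase kinases switch that complex off. When oxygen is low, the prolyl hydroxylases no longer mark the HIF alpha subunits for degradation, and the stabilized factors raise the transcription of many glycolytic genes and of genes such as Bnip3 and Egln3, so that the same transcripts are often read together as a hypoxia response. Mammary epithelial cells in culture take up glucose and release lactate under normal oxygen as well, and growth factor signaling through EGFR is known to raise glycolysis.

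All arrays had a similar brightness, with median intensities of 190.4 to 200.8. The log2 intensities correlated at 0.995 to 0.997 between arrays of the same line and at 0.986 to 0.988 between arrays of different lines, over all probe sets. In 36 genes AGR replicate 2 was over 2-fold away from the remaining AGR arrays, compared with 7 genes for AGR replicate 1 and 0 for AGR replicate 3. Egfr averaged a log2 intensity of 12.54 ± 0.19 in AGR cells and 12.31 ± 0.07 in NME cells (SD, n = 3 each), and limma gave an adjusted p of 0.139. By limma at an adjusted p under 0.05, 11.6% of all genes were lower in AGR cells and 12.6% were higher, 24.2% in either direction. Of 15 markers of mammary epithelium, 4 (26.7%) were lower in AGR cells (Ocln, Elf3, Krt19 and Cdh1). The summed intensity of all 15 was 45251 to 46462 in AGR cells against 58576 to 59277 in NME cells. Sums for the further cell types also cover all measured markers of the list. Of 11 fibroblast markers, Acta2 and Pdgfra were higher in AGR cells and 0 were lower, with summed intensities of 2187 to 2305 in AGR cells and 2048 to 2240 in NME cells. Of 9 measured markers of macrophages and other immune cells, Cd68 and Csf1r were higher and Cd14 was lower, with summed intensities of 3350 to 3904 in AGR cells and 4351 to 4678 in NME cells. Flt1 was lower among 8 endothelial markers (1268 to 1313 in AGR cells, 1444 to 1520 in NME cells) and Cidec among 7 measured adipocyte markers (1369 to 1464 in AGR cells, 1775 to 1961 in NME cells). A sum weighs bright markers most. Cd14 was the brightest immune marker (11.08 in AGR cells, 11.68 in NME cells), as was Flt1 among the endothelial markers (8.24 and 8.91). Cidec was at 8.47 in AGR cells and 9.76 in NME cells. No other endothelial or adipocyte marker passed the test. The median log2 FC was 0.04 for the immune, -0.03 for the endothelial and -0.03 for the adipocyte markers. In both lines, levels under the median of the whole array were seen for 6 of the 15 epithelial, 6 of the 11 fibroblast, 6 of the 9 immune, 5 of the 8 endothelial and 5 of the 7 adipocyte markers. The dim epithelial markers included Epcam (6.51 in AGR cells, 6.58 in NME cells) and Esrp1 (6.36 in AGR cells, 6.41 in NME cells), both named after their values were seen. The part of these markers in the results below was not tested.

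In AGR cells, 12 of the 35 measured glycolysis and hypoxia genes were lower and 3 were higher than in NME cells at an adjusted p under 0.05 from limma, while 20 did not pass the test. The lower genes were Slc2a1, Pfkl, Pfkm, Aldoa, Aldoc, Tpi1, Pgk1, Pdk1, Pdk2, Pdhb, Egln3 and Bnip3, and the higher genes were Hk2, Pdk3 and Epas1. Over all 19938 genes, 11.6% were lower and 12.6% were higher by the same test. Because the genes were chosen with earlier results of these data known, these shares are background and not a test of the group. The genes of this group were brighter than most, with a median log2 intensity of 10.35 against 8.12 over all genes, and bright genes passed the test more often: among the 11678 genes above the median of all probe sets, 17.6% were lower and 19.7% were higher. Of the 30 glycolysis and hypoxia genes above that median, 12 were lower and 3 were higher. A fold change (FC) above 2 was reached by 5 lower genes (Aldoc, Pdk1, Bnip3, Pdk2 and Pfkl) and by 0 higher genes, against 1.5% of all genes in either direction and 2.32% (lower) and 2.24% (higher) of the genes above the median. The median log2 FC of the 35 genes was -0.08, against -0.02 over all genes. The 3 AGR values lay outside the range of the 3 NME values for 20 of the 35 genes, which held for 36.4% of all genes and for 52.6% of those above the median. The number of lower genes was 9 to 13 when any single array was left out, while the number of higher genes ranged from 0 (without AGR replicate 3 or NME replicate 3) through 1 (without AGR replicate 1) to 6 (without AGR replicate 2). The number with a FC above 2 was 3 without AGR replicate 2, 3 without NME replicate 1 and 2 without NME replicate 3.

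**Figure D1:**
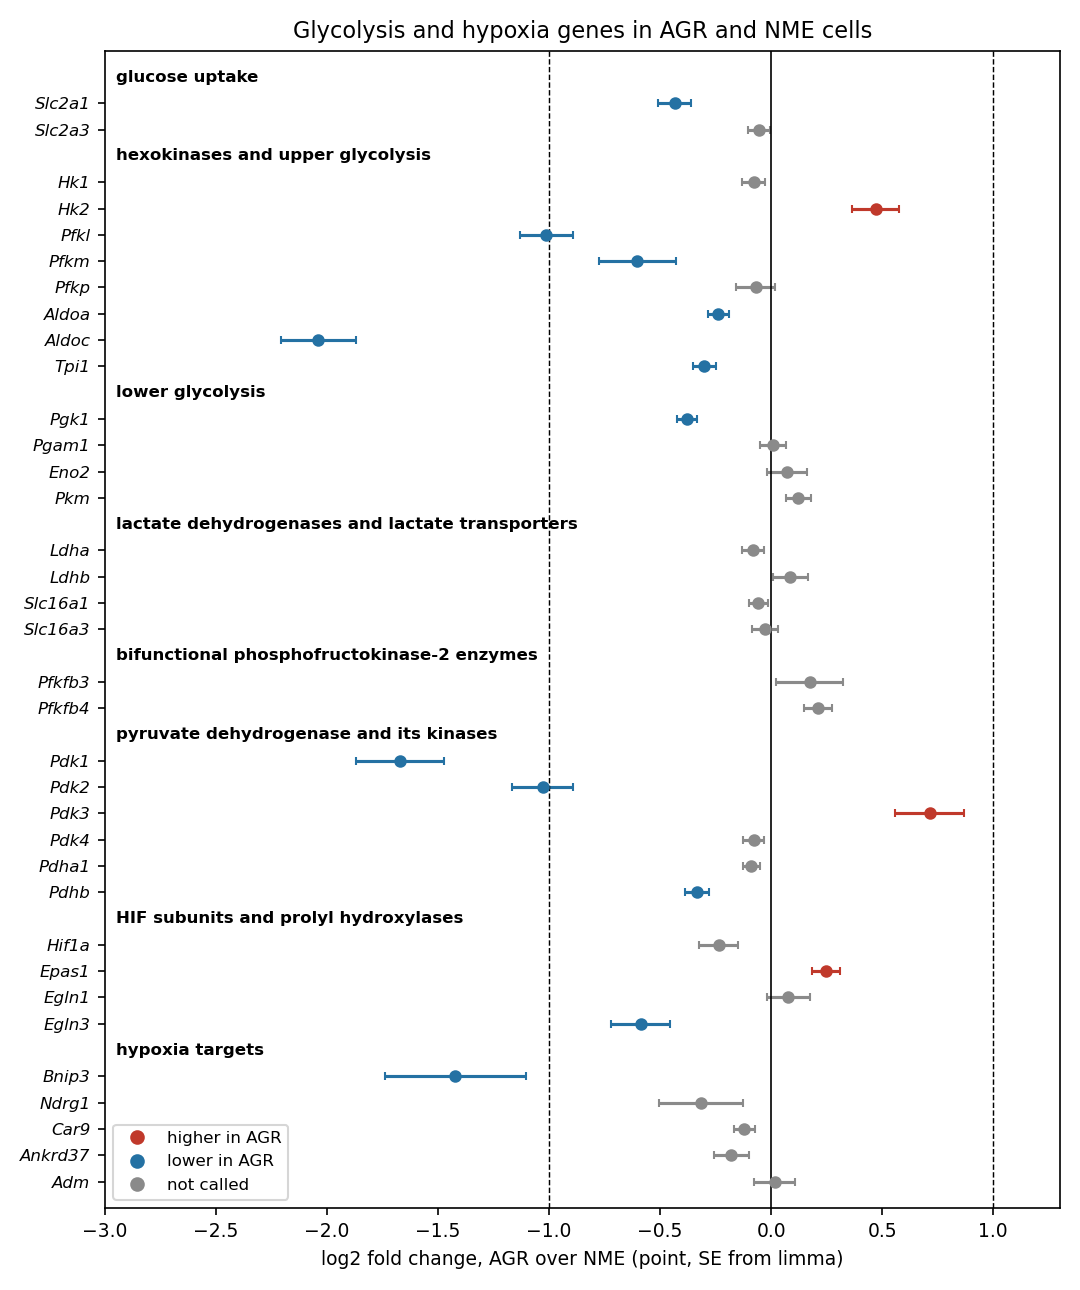
Change of the 35 measured genes by role, as log2 of AGR over NME on the x axis with the SE of limma as bars. Red marks genes called higher in AGR cells, blue genes called lower and gray genes that were not called. Dashed lines stand at a FC of 2, which Aldoc, Pdk1, Bnip3, Pdk2 and Pfkl passed on the lower side.

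Glucose enters cells through facilitative transporters. Slc2a1, which encodes the transporter that most cultured epithelial cells use, had log2 intensities of 12.54, 12.79 and 12.66 in the AGR arrays, against 13.10, 13.17 and 13.03 in the NME arrays. The values did not overlap, and the log2 FC was -0.43 (SE 0.07, adjusted p = 0.00565 from limma). Slc2a3, the high-affinity transporter best known from neurons, was dim in both lines, at 7.44 ± 0.04 in AGR cells and 7.50 ± 0.06 in NME cells (SD, n = 3 each), and did not pass the test. Both values were under 7.61, the median of all probe sets on this scale, and the files hold no detection calls, so signal and background could not be separated there.

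Hexokinases trap glucose in the cell as glucose phosphate. Hk2, the inducible hexokinase, rose to 10.43, 10.79 and 10.53 in AGR cells, against 10.02, 10.26 and 10.07 in NME cells, with every AGR array above every NME array. The log2 FC was 0.47 (SE 0.11, adjusted p = 0.0188 from limma). This call was lost without AGR replicate 3 (adjusted p = 0.0635), NME replicate 1 (0.0826) or NME replicate 3 (0.0783). Hk1, the constitutive hexokinase, was bright in both lines, at 13.50 ± 0.02 in AGR cells and 13.57 ± 0.08 in NME cells (SD, n = 3 each), and did not pass the test. A dimmer probe set annotated to Hk1 was at 10.73 in AGR cells and 10.63 in NME cells, a log2 FC of 0.10. The log2 FC of -0.08 became 0.012 when the probe sets of Hk1 were averaged.

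Phosphofructokinase commits the sugar to glycolysis and has liver, muscle and platelet isoforms. Pfkl, the liver isoform, was at 10.52, 10.13 and 10.60 in AGR cells, against 11.45, 11.37 and 11.47 in NME cells. Every AGR array was lower by more than the whole range of the NME arrays. The log2 FC was -1.01 (SE 0.12) with limma's adjusted p at 0.00120, and the AGR level was 0.496 of the NME level. Pfkm, the muscle isoform, was at 10.62, 10.08 and 10.61 in AGR cells, against 11.04, 10.82 and 11.26 in NME cells. Its log2 FC was -0.60 (SE 0.17, adjusted p = 0.0458 from limma), close to the threshold, and without any 1 of the 6 arrays it did not pass (adjusted p of 0.0597 to 0.155, the highest without NME replicate 3). Pfkp, the platelet isoform, had a log2 FC of -0.07 (adjusted p = 0.650).

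Aldolase splits the doubly phosphorylated sugar, and triosephosphate isomerase interconverts the resulting trioses. Aldoc, the aldolase isoform best known from brain, had the largest change of all 35 genes. Its log2 intensities were 9.27, 8.84 and 9.49 in AGR cells, against 11.38, 11.07 and 11.28 in NME cells, so that the highest AGR array was still far below the lowest NME array. The log2 FC was -2.04 (SE 0.17, adjusted p = 0.000255 from limma), an AGR level of 0.243 of that in NME cells. Aldoa, the ubiquitous isoform, was bright in both lines and fell by 0.24 on the log2 scale (13.41, 13.29 and 13.40 in AGR cells, 13.62, 13.60 and 13.61 in NME cells, adjusted p = 0.0106 from limma). Tpi1, the triosephosphate isomerase, fell by 0.30 (13.16, 13.04 and 13.13 in AGR cells, 13.46, 13.38 and 13.39 in NME cells, adjusted p = 0.00559). For these bright genes the change was small in size, though the groups did not overlap.

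The later steps of the pathway yield ATP and pyruvate. Of its 4 measured genes, only Pgk1 passed the test. Pgk1, which encodes the first ATP-forming enzyme, was at 13.12, 13.06 and 13.14 in AGR cells, against 13.52, 13.50 and 13.44 in NME cells, with a log2 FC of -0.38 (SE 0.05) and an adjusted p of 0.00133 by limma. Pgam1 (phosphoglycerate mutase) had a log2 FC of 0.0089, Eno2 (the neuronal enolase) of 0.07 and Pkm (pyruvate kinase of most tissues) of 0.12, with adjusted p of 0.941, 0.661 and 0.191. Pkm averaged 13.14 ± 0.09 in AGR cells and 13.02 ± 0.02 in NME cells (SD, n = 3 each), and passed the test only without AGR replicate 2 (log2 FC 0.18, adjusted p = 0.0259). Pgk1 and Pgam1 have processed copies elsewhere in the mouse genome and had 3 probe sets each, of which a pair held identical values. The log2 FC lay between -0.38 and -0.36 over the probe sets of Pgk1 and between 0.0089 and 0.042 over those of Pgam1, and binding of copies was not tested.

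Lactate dehydrogenase and the monocarboxylate transporters carry out the last steps of lactate production and export. None of the 4 genes passed the test by limma, and at an unadjusted p under 0.05 the number was also 0. Ldha, whose product favours lactate formation, was bright in both lines, at 13.79, 13.69 and 13.81 in AGR cells, against 13.87, 13.80 and 13.87 in NME cells. The log2 FC was -0.08 (SE 0.05), and the lowest NME value lay below the highest AGR value. Slc16a1, the main lactate transporter of many cell types, was at 11.89 ± 0.05 in AGR cells and 11.95 ± 0.0032 in NME cells (SD, n = 3 each). Slc16a3, a transporter suited to lactate export, had a log2 FC of -0.03, and Ldhb, whose product favours the reverse reaction, was dim at 7.07 in AGR cells and 6.99 in NME cells.

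Bifunctional enzymes set the level of the sugar phosphate that activates phosphofructokinase. Pfkfb3 was at 9.05, 9.67 and 9.22 in AGR cells, against 9.24, 9.09 and 9.10 in NME cells, and did not pass the test. Its higher AGR mean came from AGR replicate 2, without which the log2 FC was -0.0049. Pfkfb4, a HIF target in several cell types, lay near 7.61, the median of all probe sets. It was at 7.79 ± 0.06 in AGR cells and 7.59 ± 0.09 in NME cells (SD, n = 3 each). Its adjusted p was 0.0532, and it passed the test without AGR replicate 2 (0.0429) or NME replicate 1 (0.0365).

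Opposite changes within a family were seen for the pyruvate dehydrogenase kinases, which phosphorylate and inhibit the pyruvate dehydrogenase complex. Pdk1, a classical HIF target, had log2 intensities of 8.82, 8.26 and 9.04 in AGR cells, against 10.48, 10.18 and 10.48 in NME cells. All AGR values lay more than 1 log2 unit below all NME values, and the log2 FC was -1.67 (SE 0.20, adjusted p = 0.00122 from limma), an AGR level of 0.314 of that in NME cells. Pdk2, the most widely expressed kinase of the family, was at 9.03, 8.70 and 9.04 in AGR cells, against 10.06, 9.70 and 10.11 in NME cells, with a log2 FC of -1.03 (SE 0.14) and an adjusted p of 0.00199 by limma. Pdk3 went the other way. Its values were 9.34, 9.08 and 9.51 in AGR cells, against 8.80, 8.30 and 8.68 in NME cells, with a log2 FC of 0.71 (SE 0.16) and an adjusted p of 0.0163 by limma. The Pdk3 call was lost without AGR replicate 1 (adjusted p = 0.0617), AGR replicate 3 (0.0739) or NME replicate 3 (0.0504). Pdk4, which responds to fasting and lipid signals in muscle and liver, was dim in both lines, at 6.51 in AGR cells and 6.59 in NME cells. Pdhb, the beta subunit of its first enzyme, fell by 0.33 (7.90 ± 0.03 in AGR cells, 8.23 ± 0.08 in NME cells, SD, n = 3 each, adjusted p = 0.00439), and Pdha1, the alpha subunit, had a log2 FC of -0.09 (adjusted p = 0.152).

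**Figure D2:**
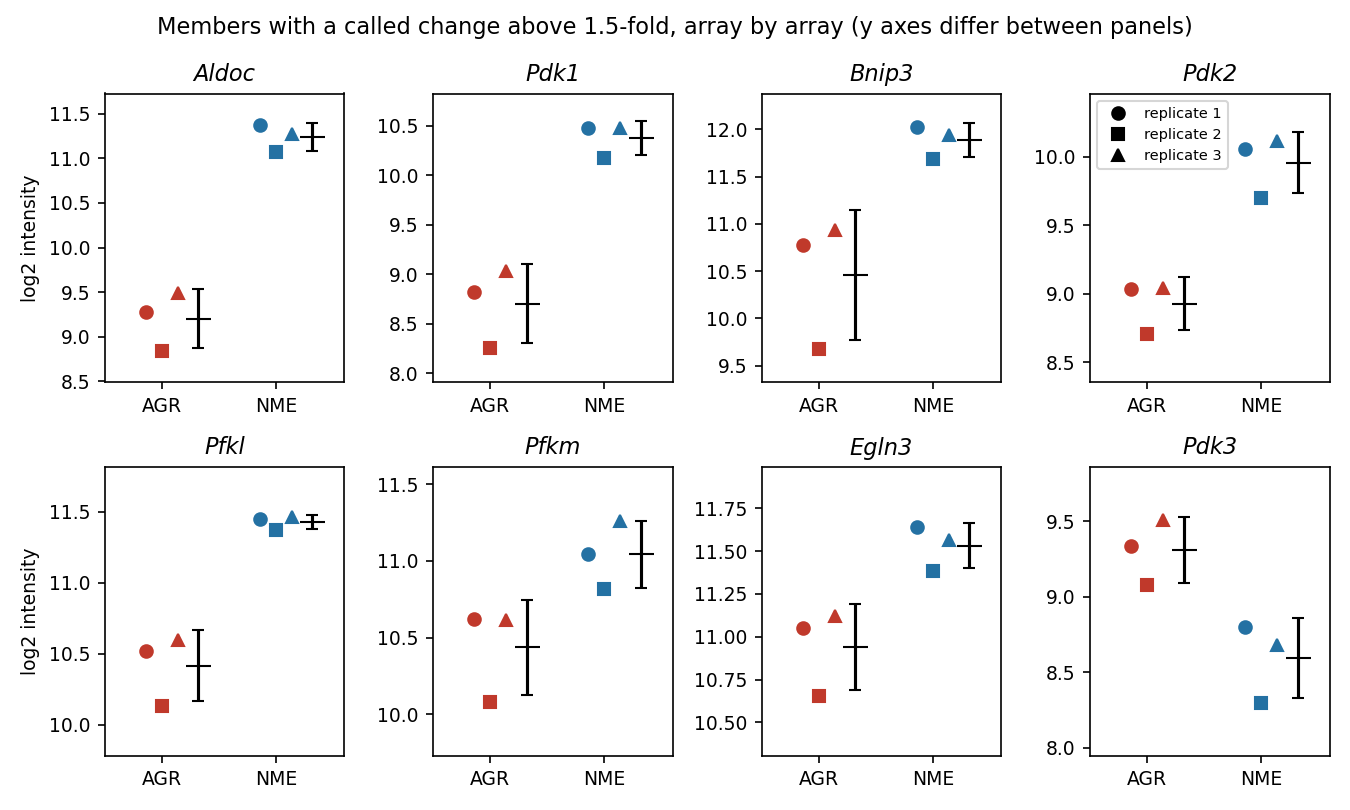
Log2 intensity (y axis) in each AGR array (red) and NME array (blue) of the 8 genes that passed the test with a FC above 1.5, with the replicate number as the symbol and the mean ± SD of the 3 arrays as the black bar. Pdk3 alone was higher in AGR cells, and replicate 2 was the lowest array of each line in every panel. AGR and NME values do not overlap in any panel, though the genes were chosen by the test between the lines.

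HIF alpha subunits drive the hypoxia response, and prolyl hydroxylases limit it. Hif1a was at 11.98, 12.31 and 12.14 in AGR cells, against 12.42, 12.42 and 12.30 in NME cells, a log2 FC of -0.24 (SE 0.09) with an adjusted p of 0.110 by limma. Without AGR replicate 2 it was lower (log2 FC -0.32, adjusted p = 0.0213). Epas1, which encodes the other main alpha subunit, was higher, at 9.11, 8.98 and 9.10 in AGR cells, against 8.71, 8.86 and 8.87 in NME cells (log2 FC 0.25, SE 0.06, adjusted p = 0.0277 from limma). This small increase did not pass without AGR replicate 1, AGR replicate 3 or any of the NME arrays (adjusted p of 0.0549 to 0.103). HIF alpha subunits are controlled mainly through protein stability, which these arrays do not measure. Egln3, a prolyl hydroxylase gene that HIF itself induces, fell to 11.05, 10.66 and 11.12 in AGR cells, against 11.64, 11.39 and 11.57 in NME cells (log2 FC -0.59, SE 0.13, adjusted p = 0.0176 from limma). The call was lost without NME replicate 1 (0.0801) or NME replicate 3 (0.0730). Egln1, the main oxygen sensor under normal oxygen, had a log2 FC of 0.08 (adjusted p = 0.650) and was higher only without AGR replicate 2 (log2 FC 0.19, adjusted p = 0.0257).

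Of the 5 hypoxia targets outside glucose metabolism, only Bnip3 passed the test. Bnip3 encodes a mitochondrial protein that promotes mitophagy. It was at 10.77, 9.68 and 10.94 in AGR cells, against 12.03, 11.68 and 11.94 in NME cells, with AGR replicate 2 more than 1 log2 unit below the other AGR arrays. The log2 FC was -1.42 (SE 0.32, adjusted p = 0.0177 from limma), an AGR level of 0.373 of that in NME cells. Without NME replicate 1, 2 or 3 the adjusted p was 0.0806, 0.0549 and 0.0725. A dimmer probe set annotated to the same gene had a log2 FC of -1.08. In a limma fit over all probe sets its SE was 0.18 and its adjusted p was 0.0125. The probe set used had an SE of 0.34 and an adjusted p of 0.0386 in that fit. Whether either probe set binds other sequences was not tested. Ndrg1, a stress and hypoxia gene of epithelial cells, spread widely in AGR cells (12.69, 13.48 and 12.92, against 13.32, 13.43 and 13.29 in NME cells) with an adjusted p of 0.312, but without AGR replicate 2 it was lower with a log2 FC of -0.54 (adjusted p = 0.00612). Car9, the carbonic anhydrase that is among the most tightly HIF-dependent genes known in human cells, was dim in both lines, at 6.53, 6.64 and 6.60 in AGR cells and 6.71, 6.68 and 6.74 in NME cells. Adm (adrenomedullin) at 7.26 and 7.25 was also dim, and Ankrd37 had a log2 FC of -0.18 (adjusted p = 0.165).

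The core letters of the hypoxia response element were searched in the promoters of these genes, because many of them are known HIF targets. Promoter sequences of RefSeq (GRCm38.p6) were found for 34 of the 37 genes, not for Epas1, Ndrg1 and Slc2a3. The letters were ACGTG and GCGTG on both strands, in the window from 250 bases before to 50 after the first start listed for a gene. A CACGTG, the E-box that other factors such as MYC bind, holds ACGTG on both strands and counts as 2 matches. At least 1 match was present in 28 of 34 promoters (82.4%), against 43.8% of all 27025 promoters of the same length. The promoters of these genes were richer in G and C, with a median of 63.5% against 52.7% over all promoters, and both motifs hold a CG. A match was present in 10 of 12 promoters of lower genes and in 15 of 18 promoters of genes that did not pass the test, which is 83.3% of each. The 250 bases before the start are shown for the 5 genes that fell more than 2-fold and for Pdk3, which rose, on the strand of the gene and with the matched letters in capitals.
Aldoc (chr11:78322823-78323072, plus strand): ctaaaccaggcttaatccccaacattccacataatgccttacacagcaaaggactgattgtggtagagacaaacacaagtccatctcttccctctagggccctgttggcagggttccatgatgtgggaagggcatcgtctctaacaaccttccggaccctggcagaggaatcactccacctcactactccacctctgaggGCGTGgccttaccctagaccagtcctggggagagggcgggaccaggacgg
Pdk1 (chr2:71872974-71873223, plus strand): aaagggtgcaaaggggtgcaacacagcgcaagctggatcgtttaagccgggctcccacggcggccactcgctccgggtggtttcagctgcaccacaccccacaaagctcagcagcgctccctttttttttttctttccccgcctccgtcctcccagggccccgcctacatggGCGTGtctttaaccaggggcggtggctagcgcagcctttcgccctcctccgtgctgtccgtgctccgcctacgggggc
Bnip3 (chr7:138909507-138909756, minus strand): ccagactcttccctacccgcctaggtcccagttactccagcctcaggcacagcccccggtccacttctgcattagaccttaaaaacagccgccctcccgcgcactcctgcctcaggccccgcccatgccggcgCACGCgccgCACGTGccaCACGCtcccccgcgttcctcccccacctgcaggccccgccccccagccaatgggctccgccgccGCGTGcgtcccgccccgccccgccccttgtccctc
Pdk2 (chr11:95041372-95041621, minus strand): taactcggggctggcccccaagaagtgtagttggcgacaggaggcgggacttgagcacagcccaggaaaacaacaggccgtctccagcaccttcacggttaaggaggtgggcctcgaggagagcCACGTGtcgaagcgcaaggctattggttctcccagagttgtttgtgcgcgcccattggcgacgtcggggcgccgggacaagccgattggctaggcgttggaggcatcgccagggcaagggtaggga
Pfkl (chr10:78009808-78010057, minus strand): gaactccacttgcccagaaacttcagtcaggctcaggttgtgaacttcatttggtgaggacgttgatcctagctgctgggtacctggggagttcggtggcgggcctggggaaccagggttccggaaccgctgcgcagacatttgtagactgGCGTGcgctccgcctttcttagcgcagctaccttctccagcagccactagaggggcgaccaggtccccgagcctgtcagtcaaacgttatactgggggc
Pdk3 (chrX:93832151-93832400, minus strand): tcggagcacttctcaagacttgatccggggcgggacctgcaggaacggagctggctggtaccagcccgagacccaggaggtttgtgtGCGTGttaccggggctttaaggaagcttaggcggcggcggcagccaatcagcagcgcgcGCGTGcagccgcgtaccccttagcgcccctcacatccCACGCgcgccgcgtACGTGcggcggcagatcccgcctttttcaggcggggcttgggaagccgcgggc
The stretch before Bnip3 held 5 matches, a CACGTG among them. The stretch before Pdk3, which rose, held 4 matches, while Aldoc, Pdk1 and Pfkl, which fell, held 1 each. In the whole window up to 50 bases after the start, Aldoc held 3 matches and Pdk1 held 2. The 2 matches before Pdk2 were the strands of 1 CACGTG. A match is only a string of letters and was not tested as a binding site.

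The AGR arrays differed among themselves in these genes. Of the 12 lower genes, 10 were lowest in AGR replicate 2, while Slc2a1 was lowest in AGR replicate 1 and Pdhb in AGR replicate 3. Among all 2304 lower genes of the arrays, AGR replicate 2 was the lowest AGR array for 37.8%, and for 46.8% of those with a FC above 2. In the NME arrays, replicate 2 was also the lowest for 10 of the 12 genes (83.3%), against 61.9% of all lower genes and 75.6% of those with a FC above 2. For Bnip3 the AGR arrays were -1.11, -2.21 and -0.94 log2 units from the NME mean, for Pdk1 -1.56, -2.12 and -1.34, and for Aldoc -1.97, -2.40 and -1.75. The same replicate 2 held the highest AGR value for Slc2a1 and Pdhb among the lower genes and for Hk2 among the higher ones. It was also highest for Ndrg1, Hif1a, Hk1, Pfkp, Eno2, Slc16a1, Slc16a3, Pfkfb3 and Car9, which were not called. The decreases of Aldoc, Pdk1, Pdk2 and Pfkl passed the test without AGR replicate 2 as well, with log2 FCs of -1.86, -1.45, -0.92 and -0.87. No sample label distinguishes replicate 2 of either line, and what sets these arrays apart was not tested.

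**Figure D3:**
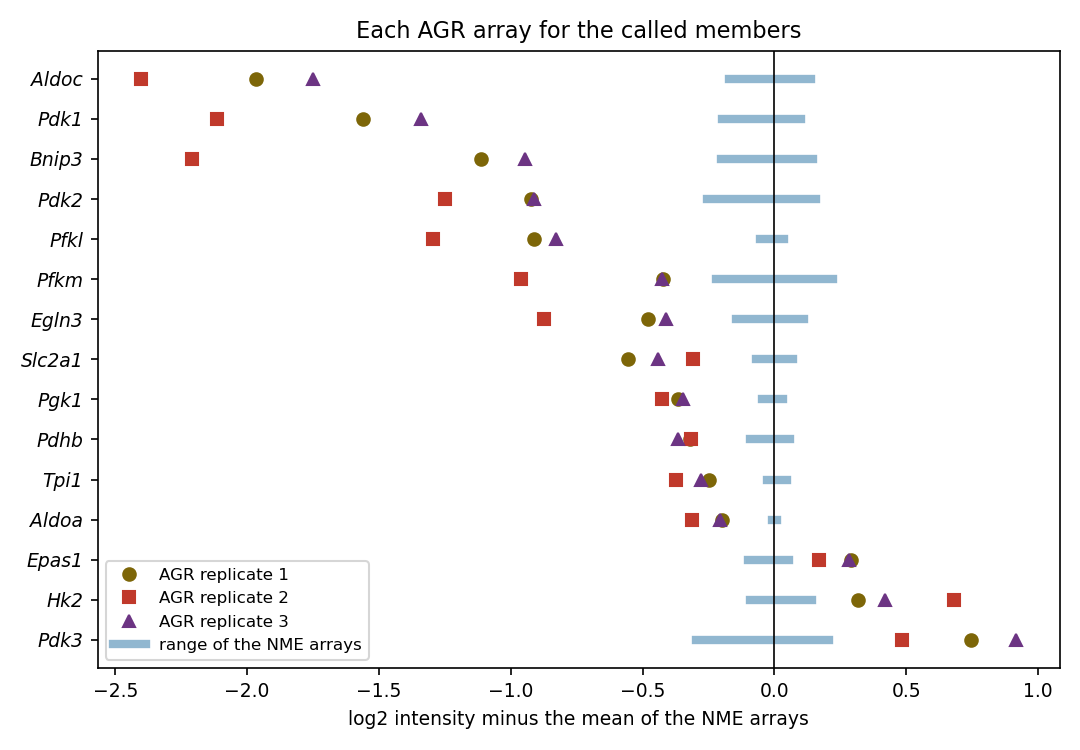
Log2 intensity of each AGR array minus the mean of the NME arrays (x axis) for the 15 genes that passed the test, with the range of the NME arrays as a blue bar. AGR replicate 2 (red squares) was the lowest AGR array for 10 of the 12 lower genes. All AGR values lay outside the NME range, though the genes were chosen by the test between the lines.

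Isoforms of the same step were compared within each array, as the log2 difference between 2 genes, to ask whether the lines changed them unequally. In total 10 pairs were compared by a two-sided exact permutation test, where 3 against 3 arrays cannot give a p under 0.10. Any pair without overlap between the lines gets this smallest value, which held for 7 pairs (adjusted p = 0.143 over the 10 pairs). The share without overlap among pairs of other genes was not counted. For single genes it was 36.4% of all genes and 52.6% of those above the median of all probe sets. The shift of a pair is the AGR mean minus the NME mean of this difference. Aldoc shifted by -1.80 (SE 0.18) relative to Aldoa, Egln3 by -0.67 (SE 0.07) relative to Egln1, and Pfkp by 0.94 (SE 0.21) relative to Pfkl. Hk2 shifted by 0.55 (SE 0.14) relative to Hk1, Epas1 by 0.48 (SE 0.15) relative to Hif1a, Pfkm by 0.41 (SE 0.11) relative to Pfkl and Slc2a3 by 0.38 (SE 0.08) relative to Slc2a1. The lactate genes gave the smaller shifts, 0.17 (SE 0.11) for Ldhb relative to Ldha and 0.03 (SE 0.05) for Slc16a3 relative to Slc16a1, with overlapping arrays. Pfkfb4 relative to Pfkfb3 shifted by 0.04 (SE 0.22). These values compare changes and not levels, since the brightness of different probe sets is not comparable.

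**Figure D4:**
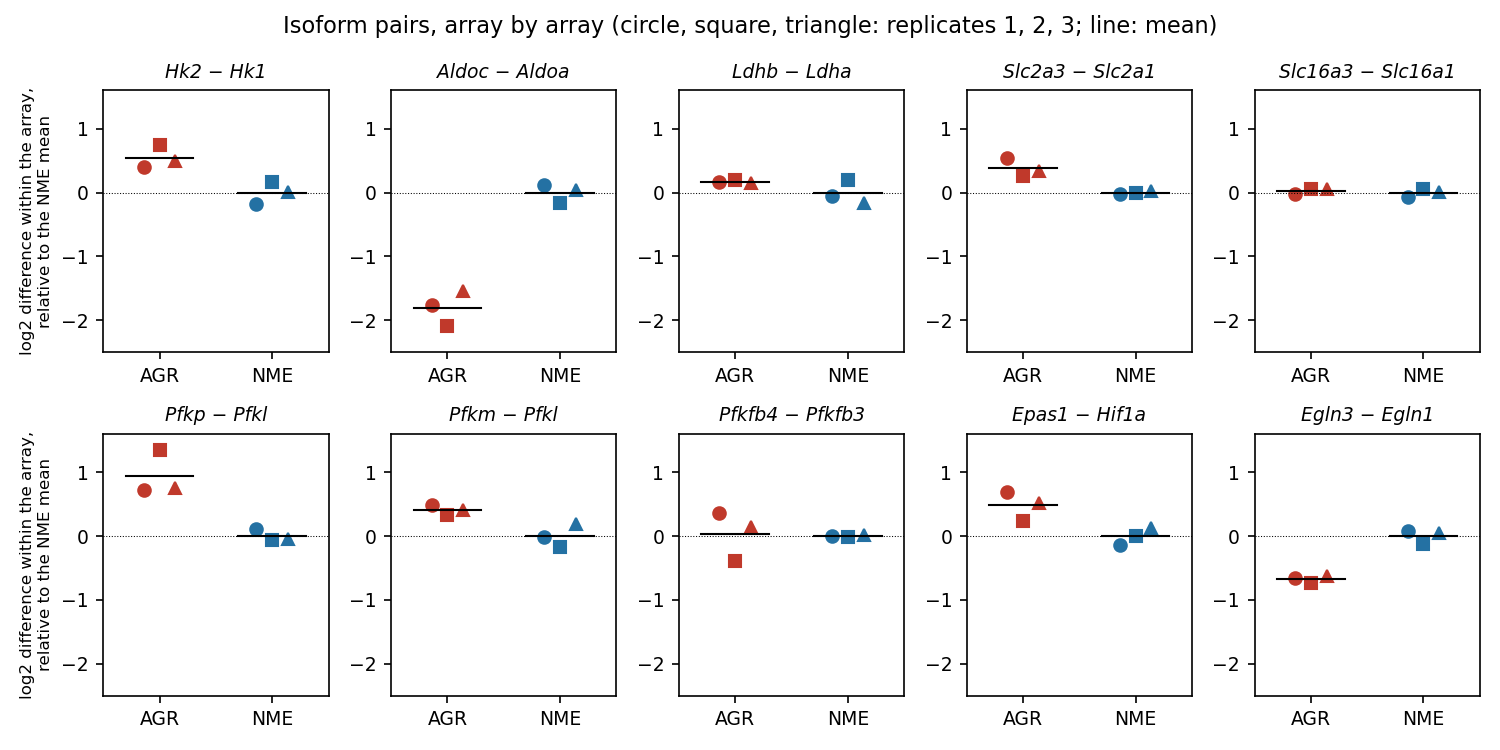
Within-array log2 difference between 2 isoforms, relative to its mean over the NME arrays (y axis), in each AGR array (red) and NME array (blue), with the mean as a line. The lines do not overlap for 7 of the 10 pairs, and this share was not counted for pairs of other genes. The shift was largest for Aldoc relative to Aldoa, at -1.80.

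Further genes of glucose metabolism and of the hypoxia response were read from the same fit, by lists written by function. These lists too were written with earlier results of these data known. Of 42 other measured hypoxia response genes, 15 fell and 8 rose in AGR cells, with a median log2 FC of -0.03. These are 35.7% lower and 19% higher, beside 11.6% and 12.6% of all genes and 17.6% and 19.7% of the genes above the median. The lower genes included Rora (-0.82), Ddit4, an inhibitor of mTOR signaling (-0.71), Sap30 (-0.81) and Fam162a (-0.50), and also Ero1a, an oxidoreductase of the endoplasmic reticulum, at 11.73 ± 0.34 in AGR cells and 12.70 ± 0.11 in NME cells (SD, n = 3 each), a log2 FC of -0.97. Vegfa, the angiogenic ligand, fell by 0.49 (11.94 ± 0.23 in AGR cells, 12.44 ± 0.03 in NME cells, SD, n = 3 each). The higher genes were led by Plod2, a collagen lysyl hydroxylase, at 11.14 ± 0.12 in AGR cells and 9.59 ± 0.05 in NME cells (SD, n = 3 each, log2 FC 1.55), Edn1, which encodes endothelin (log2 FC 1.69), the transcriptional repressor gene Bhlhe41 (log2 FC 1.48) and the creatine transporter gene Slc6a8 (log2 FC 0.45). The 15 lower genes became 8 without NME replicate 1 and 9 without NME replicate 3. Ero1a, Vegfa and the leave-one-array counts were looked at after the values of the list were seen.

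Of 17 other regulators of the HIF pathway, 4 were lower (23.5%) and 3 were higher (17.6%). The shares were 11.6% and 12.6% of all genes, and 17.6% and 19.7% of the genes above the median. Os9, whose product binds HIF subunits and hydroxylases, fell by 0.64, followed by Cul2 (-0.37), a subunit of the ligase that degrades HIF, Usp20 (-0.32) and Ep300 (-0.16). Crebbp, the coactivator related to Ep300, had a log2 FC of 0.58, Arnt2 of 0.34 and Eloc, another subunit of the same ligase, of 0.25. The number of lower genes in this list was 2 without AGR replicate 1, AGR replicate 3, NME replicate 1 or NME replicate 2.

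Of 24 other glycolytic enzymes and transporters, 4 were lower (16.7%) and 1 was higher (4.17%). Beside this and the next 2 lists, 11.6% of all genes were lower and 12.6% were higher. Of the genes above the median, 17.6% were lower and 19.7% were higher. Pklr, the pyruvate kinase of liver and red cells, was at 10.64 ± 0.22 in AGR cells and 11.73 ± 0.07 in NME cells (SD, n = 3 each), a log2 FC of -1.08 (adjusted p = 0.000654 from limma). Pgm2, Ldhd and Slc2a8 had log2 FCs of -0.59, -0.29 and -0.24. Eno3, the muscle enolase, was the higher gene, at 11.49 ± 0.10 in AGR cells and 10.76 ± 0.14 in NME cells (SD, n = 3 each), a log2 FC of 0.73. Of 17 genes of gluconeogenesis and glycogen metabolism, 4 were lower (23.5%) and 0 were higher by limma. They were Gbe1, the glycogen branching enzyme (-0.67), Pck2, the mitochondrial enzyme that makes phosphoenolpyruvate (-0.61), Ugp2 (-0.42) and Ppp1r3b (-0.32). Without NME replicate 1 or NME replicate 3 this number was 2, and by the methods' two-sided test it was 0. Of 11 genes of the pentose phosphate pathway, 1 was higher and 1 was lower, 9.09% each way. Prps2, which makes the precursor of nucleotide synthesis, was higher (log2 FC 0.89) and Pgls was lower (-0.16). Without AGR replicate 2 the numbers were 3 higher and 2 lower, and without any other array Pgls did not pass.

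The mitochondrial list held 23 measured genes of the pyruvate carrier, the pyruvate dehydrogenase complex and the citric acid cycle with malic enzymes. Of these, 7 were lower (30.4%) and 5 were higher (21.7%), all by less than 1.5-fold. The shares were 11.6% and 12.6% of all genes, and 17.6% and 19.7% of the genes above the median. Suclg2, a succinyl-CoA ligase subunit, fell by 0.44, Idh3b by 0.32, Fh1, the fumarase, by 0.29 and Mpc1, a subunit of the pyruvate carrier, by 0.19. Idh3a rose with a log2 FC of 0.52, so that subunits of the same isocitrate dehydrogenase moved in opposite directions. Me2, a mitochondrial malic enzyme, had a log2 FC of 0.46, Pdp1, the phosphatase that opposes the pyruvate dehydrogenase kinases, of 0.39 and Ogdh of 0.20. The number of lower genes was 3 when the arrays were centred on their median and 4 without AGR replicate 1 or NME replicate 1, and the number of higher genes was 3 without any of AGR replicates 1 and 3 and NME replicates 1 and 2. Over all 6 lists together, 35 of 134 measured genes were lower and 18 were higher. These are 26.1% lower and 13.4% higher, beside 11.6% and 12.6% of all genes and 17.6% and 19.7% of the genes above the median.

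**Figure D5:**
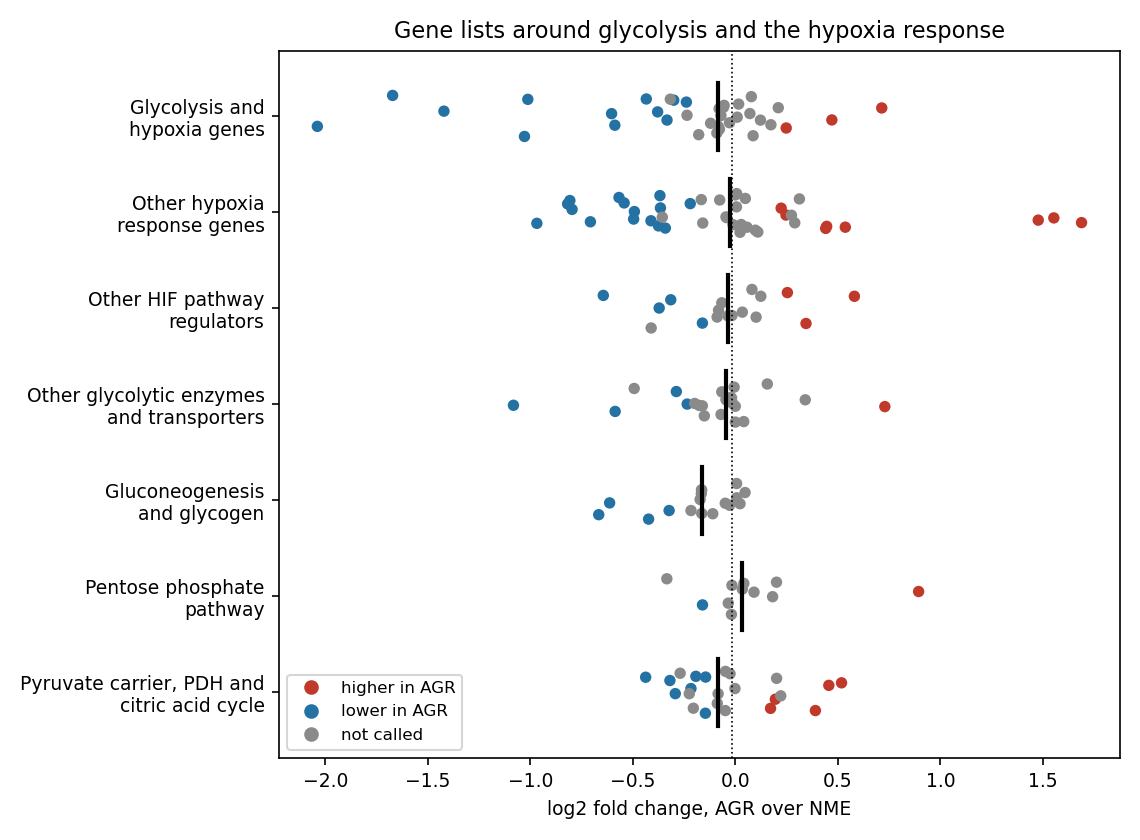
Change in log2 of AGR over NME (x axis) for the 35 glycolysis and hypoxia genes and of the 134 further genes in 6 lists, with the median of each list as a black line and the median of all genes, -0.02, as a dotted line. Red marks genes called higher, blue genes called lower and gray genes not called. The other hypoxia response genes hold 15 lower and 8 higher genes, of which 0 lower and 3 higher genes had a FC above 2.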

How the data were processed

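The platform was the Affymetrix Mouse Gene 1.0 ST array, with 1 array per RNA sample of AGR or NME cells. The deposited values are linear intensities that the authors had already processed. The submitters' processing notes name MAS5, with version and settings not given in the sources used here, and this array type lacks the mismatch probes that MAS5 uses, so the normalization is unknown. Here log2 was taken with no offset or further scaling. Each gene was represented by the brightest of its probe sets among the 21789 of 35557 with 1 gene symbol in the platform annotation. Probe sets with several symbols (1621) or none listed (12147) were not used. AGR and NME cells were compared in limma 3.58.1 (lmFit and eBayes, R 4.3.3), with Benjamini-Hochberg adjustment across all 19938 genes. A gene was called at an adjusted p under 0.05, and the FC threshold of 2 is that of the study. The number of arrays limits the precision. The steps were tested on simulated data. Motif searches were descriptions.

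The genes and lists were chosen with earlier results of these data known. All 37 genes are described, those called with a FC above 1.5 array by array, and of each further list up to 4 genes with the smallest adjusted p in each direction. The main fit did not treat the arrays as paired by the replicate numbers of the labels. Alternatives were quantile normalization, centring on the median, filters on dim genes, the mean of all probe sets, an offset of 16, trended and robust eBayes, the two-sided test of the methods, the replicate block and leaving out each array.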

Additional observations from a re-analysis of the deposited data

How the results depend on the processing

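Of the 15 called genes, 9 kept their call and direction under all 15 alternatives: Slc2a1, Pfkl, Aldoa, Aldoc, Tpi1, Pgk1, Pdk1, Pdk2 and Pdhb. The other 6 (Hk2, Pfkm, Pdk3, Epas1, Egln3 and Bnip3) kept their direction but lost the call under the methods' two-sided test (adjusted p of 0.0861 to 0.174) and without single arrays. With the methods' two-sided test 10 genes (Pdha1 with those 9) were lower and 0 were higher, with 4 higher at an unadjusted p under 0.05. Leaving out single arrays gave 0 to 6 higher genes, 9 to 13 lower genes and 2 to 5 lower genes with a FC above 2. The cause was not tested. Among genes not called, the log2 FC changed sign for Hk1 (0.012 with the mean of all probe sets), and without single arrays for Pgam1 (-0.021 to 0.063), Eno2 (-0.018 to 0.131), Slc16a3 (-0.067 to 0.0059), Pfkfb3 (-0.0049 to 0.31) and Adm (-0.069 to 0.11). Pfkfb4 was called under 6 alternatives, quantile normalization among them.

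With the replicate block 4 genes were higher and 12 lower, and Pfkfb4 was the added call (adjusted p = 0.0323). Deviations from the mean of each line correlated at -0.13, 0.33 and 0.26 between same-numbered arrays of the 2 lines. Between differently numbered arrays they correlated at -0.47 to 0.36. The labels do not say whether the numbers pair the arrays, and these few values do not settle it. Quantile normalization and centring moved the median of all genes to 0.0015 and 0.0094. Centring gave 3 lower genes of the mitochondrial list. In the counts over the further lists, chosen after seeing the data, the methods' test gave 8 lower and 5 higher other hypoxia response genes and 0 lower genes of gluconeogenesis and glycogen. Dim genes such as Car9, Adm, Ldhb, Pdk4 and Slc2a3 have levels too low to tell signal from background without detection calls.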
